A study of Mus musculus with 15 samples.

Results

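The acute phase proteins are plasma proteins whose synthesis in hepatocytes changes during inflammation and injury. Interleukin-6 acts through the receptor chain gp130 and STAT3, interleukin-1 through NF-kB, and both act together with C/EBP factors on the promoters of these genes. In mice the serum amyloid A proteins Saa1 and Saa2 respond most steeply, while haptoglobin (Hp) and hemopexin (Hpx), which bind free haemoglobin and free heme, are abundant in plasma at all times. The 10 genes described here are Saa1, Saa2, Saa4, Hp, Hpx, Orm1, Orm2, Lcn2, Apcs and Itih4. They were taken by gene symbol from a table of 24965 genes that the authors deposited, in which each of the 10 symbols stands on 1 row. All 10 are among the 13335 genes that have an adjusted p there, called tested genes below.

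The study measured RNA in frozen livers of 15 male C57BL/6J mice aged 9 weeks, all carrying floxed alleles of Gata4, which encodes a GATA factor made in hepatocytes and other cells. At 8 weeks of age, 7 days before collection, the mice received an AAV8 vector, which either expressed Cre from the Tbg promoter (Gata4LKO), a promoter active in hepatocytes, or was empty (Control). The groups were 4 fasted Gata4LKO, 4 fasted Control, 3 refed Gata4LKO and 4 refed Control livers. Fasted mice went without food for 12 h, and refed mice had 12 h without food and then 12 h on a diet of 69% sucrose and 10% fat. Cre was absent from Control livers, so the presence of Cre and the loss of Gata4 cannot be told apart. The sample titles of each group have a number in common, which differs between the groups. The labels leave this number unexplained, and what it stands for cannot be told apart from genotype.

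The table holds the authors' estimates of 1 comparison and no values per liver, so no value per sample can be given for any gene. Its header names no groups. As set out with the processing, it was read as fasted Gata4LKO minus fasted Control livers, since the deposited result carries the name of the genotype. A reading as refed Control minus fasted Control livers matched the table equally well, and every direction and group name below rests on the choice between them. Fasn, the fatty acid synthase gene that refeeding on sugar is known to induce, had an estimate of -0.77 ± 0.18 (SE) on the log2 scale. Its adjusted p was 0.00300 in the authors' DESeq2 Wald test. Under the second reading this estimate would be a fall on refeeding. Pck1, a gluconeogenic gene that fasting induces, had an estimate of 0.01 ± 0.82 (SE) by the authors' deposited table. Fasn was picked out with its value known. A gene passed the test, or was called, with an adjusted p under 0.05 in the authors' DESeq2 Wald test. Of the tested genes 2.19% were called, with 0.585% called higher and 1.60% called lower, and the share was 3.82% among tested genes with a mean normalized count of at least 1000. The targeted gene, Gata4, did not pass the test and its estimate was above 0 in the livers labelled Gata4LKO, with a log2 difference of 0.31 ± 0.15 (SE) and an adjusted p of 0.361 in the authors' deposited table, and which exons are floxed is not stated in the labels. Hepatocyte markers were abundant, with mean normalized counts of 1107250 for albumin (Alb) and 52674 for Apoa2 in the authors' deposited table. In bulk liver RNA, fewer cells of a type and less RNA per cell cannot be told apart.

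Of the 10 acute phase genes, 1 differed between the fasted groups, against 2.19% of all tested genes. Hp was higher in livers labelled Gata4LKO than in Control livers, with a fold of 1.27 (95% interval 1.11 to 1.45), and the other 9 genes did not pass the test. The estimates of Saa1, Saa2, Hpx, Orm1, Orm2, Lcn2, Apcs and Itih4 were below 0 and that of Saa4 was above 0, with 95% intervals that included 0 in all 9. Over all tested genes, 48.1% of estimates were below 0. The median log2 difference of the 10 genes was -0.16, against 0.01 over all tested genes, and their precision-weighted mean was -0.06. At an unadjusted p under 0.05 the number of members was again 1, against 11.4% of all tested genes.

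**Figure D1:**
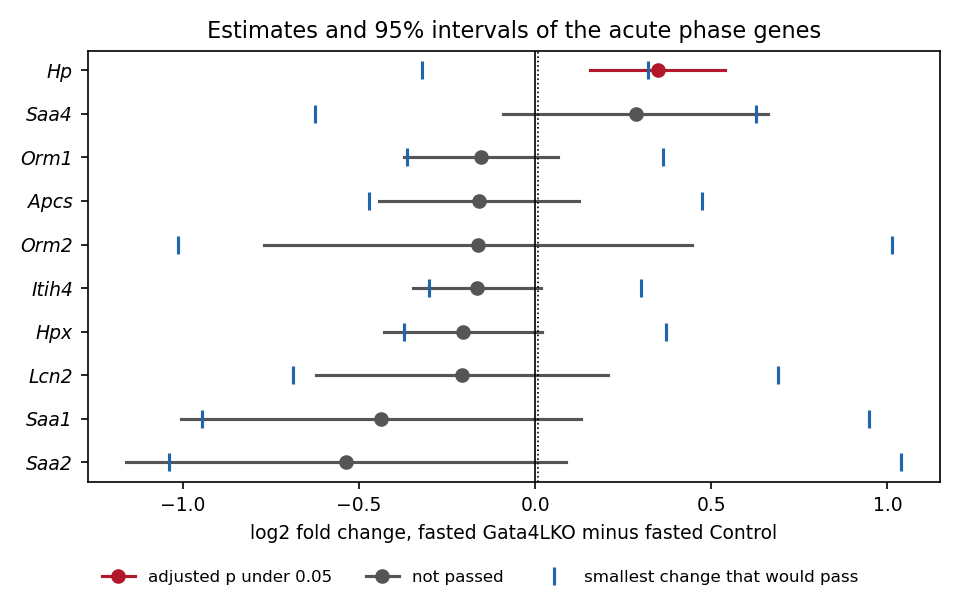
Points are log2 fold changes (fasted Gata4LKO minus fasted Control) from the authors' deposited table for the 10 genes, lines are 95% intervals, and blue ticks mark the smallest change that would have passed at each gene's standard error. Hp, in red, lies beyond its tick, the solid vertical line is 0 and the dotted line is the median of all tested genes.

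The genes span a wide range of abundance. Per kilobase of the transcript with the longest coding sequence, Hp had a mean normalized count of 35055 over the 15 libraries, followed by Hpx at 23972, Orm1 at 10480 and Itih4 at 6583. Saa4 averaged 1679, Apcs 1176 and Saa1 1166 normalized counts per kilobase. The lowest levels per kilobase were 270.8 for Saa2, 210.0 for Orm2 and 188.3 for Lcn2. Per kilobase of all annotated exons merged, a length that takes in retained introns, the levels were 286.5 for Saa1, 70.1 for Saa2 and 65.7 for Lcn2, so that Saa1 lay well below Apcs, and Saa2 below Orm2. This mean takes in refed as well as fasted livers, and the spread behind it is not known, so the order of the levels carries no test. Hp, Hpx and Itih4 alone supplied 0.262%, 0.200% and 0.129% of the summed mean normalized counts of all genes, and the 10 genes together 0.669%.

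**Figure D2:**
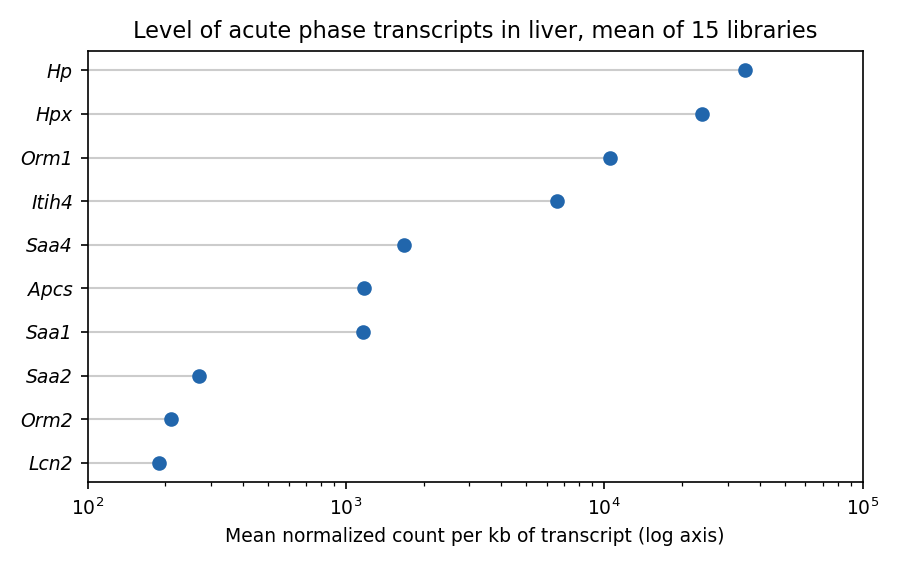
Points show the mean normalized count per kilobase of transcript over all 15 libraries for each of the 10 genes, on a log axis, with transcript lengths from GENCODE. Hp is the highest at 35055 and Lcn2 the lowest at 188.3.

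Haptoglobin and hemopexin are the plasma scavengers of haemoglobin and of heme. Hp (ENSMUSG00000031722, mm10 chromosome 8, 109575128 to 109579172, minus strand) had a mean normalized count of 47149 and a log2 difference of 0.35 ± 0.10 (SE) by the authors' deposited table. Its Wald p was 0.000407 and its adjusted p 0.0245, which placed it 222nd by p among the tested genes (authors' deposited table). Hpx (ENSMUSG00000030895, chromosome 7, 105591613 to 105600137) had a mean normalized count of 35934 and a log2 difference of -0.21 ± 0.11 (SE), and its adjusted p was 0.503 in the authors' deposited table. The estimates of the 2 scavengers had opposite signs, but a test of the difference needs values per liver and was not made. The call of Hp was lost when the Wald statistics of all tested genes were centred and scaled to their own spread, which gave an adjusted p of 0.132 (range over 6 settings 0.0201 to 0.132).

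The precision was alike for both scavengers. At the standard error of Hp, a change of 0.32 on the log2 scale was the smallest that would have passed, and at that of Hpx 0.37. Under the authors' model these standard errors correspond to a coefficient of variation between livers of about 9.62% for Hp and 11.1% for Hpx. Such values are implied by the model and are not the measured spread of the fasted livers. Among the 500 tested genes nearest to Hp in mean count, 91.8% had a smaller absolute log2 fold change and 54.2% a smaller standard error. Few genes are as abundant as Hp, and the means of these 500 ran from 4367 to 412595. Hp combined an estimate near the upper end among these genes with an ordinary standard error.

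Genes whose products handle haemoglobin, heme and iron after capture, or bind the other acute phase proteins, were read from a list of 20 receptors and partners. Of 17 tested genes, 0 passed the authors' DESeq2 Wald test and 3 had an unadjusted p under 0.05, with a median log2 difference of 0.04. Over all tested genes 2.19% passed and 11.4% had an unadjusted p under 0.05, and these shares serve for each list below. The smallest p belonged to Blvrb, a biliverdin reductase, with a log2 difference of 0.38 ± 0.12 (SE) and an adjusted p of 0.0695, and to Fth1, the ferritin heavy chain gene, with one of 0.18 ± 0.06 (SE) and an adjusted p of 0.0788, in the authors' deposited table. Cd163, the macrophage receptor for haptoglobin bound to haemoglobin, had a log2 difference of -0.23 ± 0.22, Lrp1, the hemopexin receptor, at -0.02 ± 0.08, and the heme oxygenase gene Hmox1 at 0.20 ± 0.24 (SE) by the authors' deposited table, and these 3 were picked out with their values known.

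The serum amyloid A genes lie side by side on chromosome 7. Saa1 and Saa2 encode the inducible proteins carried on high-density lipoprotein, and Saa4 a form that is made constitutively in human liver. Saa2 (ENSMUSG00000057465, 46751790 to 46754313, plus strand) had a log2 difference of -0.54 ± 0.32 (SE) and Saa1 (ENSMUSG00000074115, 46740497 to 46742980, minus strand) one of -0.44 ± 0.29 (SE) by the authors' deposited table. Saa4 (ENSMUSG00000040017, 46727998 to 46732603, minus strand) had a log2 difference of 0.29 ± 0.19 (SE) by the authors' deposited table. None of the 3 passed, with adjusted p of 0.549 for Saa2, 0.625 for Saa1 and 0.633 for Saa4 in the authors' deposited table. The fold of Saa2 was 0.689 (95% interval 0.447 to 1.06), that of Saa1 0.738 (0.498 to 1.10) and that of Saa4 1.22 (0.939 to 1.58).

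Saa1 and Saa2 combined large estimates with large errors. Among the 500 tested genes nearest in mean count, 97.0% had a smaller absolute log2 fold change than Saa1, but 98.2% also had a smaller standard error. For Saa2 these shares were 97.4% and 97.2%, and for Saa4 91.0% and 93.4%. A change of at least 0.95 for Saa1, 1.04 for Saa2 and 0.63 for Saa4 on the log2 scale would have been needed to pass. The implied coefficient of variation between livers was about 28.2% for Saa1, 30.3% for Saa2 and 18.7% for Saa4, against 9.04% for Itih4, the lowest of the 10 genes.

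**Figure D3:**
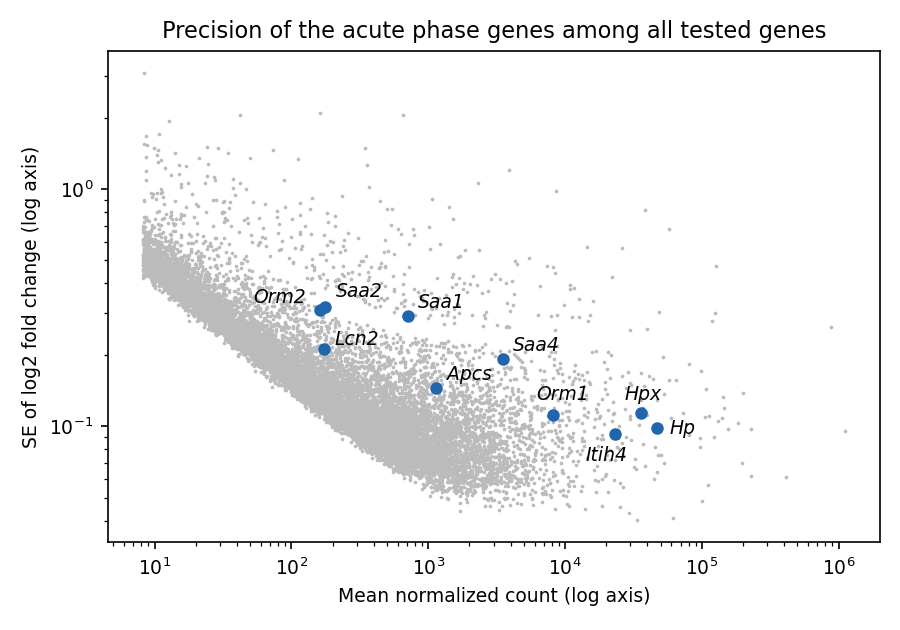
Each grey point is a tested gene, with its mean normalized count on the x axis and the standard error of its log2 fold change on the y axis, both on log axes and both from the authors' deposited table. The acute phase genes are in blue: Saa1, Saa2, Orm2, Saa4, Lcn2 and Apcs lie above most genes of like mean, while Hp, Hpx, Orm1 and Itih4 lie within the main body.

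The promoters of Saa1 and Saa2 are shown because the 2 genes are near copies with estimates of the same sign. Both windows run from 250 bases before to 50 bases after the RefSeq start (GRCm38.p6, the assembly of mm10), at chr7:46742931-46743230 on the minus strand for Saa1 and chr7:46751583-46751882 on the plus strand for Saa2. Sequences are given 5′ to 3′, and capitals mark the bases that differ or have no partner in the other window.
Saa1: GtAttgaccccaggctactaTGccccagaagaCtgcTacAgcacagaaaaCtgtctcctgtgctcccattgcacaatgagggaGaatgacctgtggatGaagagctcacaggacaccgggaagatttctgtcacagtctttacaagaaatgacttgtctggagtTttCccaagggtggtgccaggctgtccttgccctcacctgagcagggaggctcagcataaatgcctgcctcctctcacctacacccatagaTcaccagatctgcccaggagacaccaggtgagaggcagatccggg
Saa2: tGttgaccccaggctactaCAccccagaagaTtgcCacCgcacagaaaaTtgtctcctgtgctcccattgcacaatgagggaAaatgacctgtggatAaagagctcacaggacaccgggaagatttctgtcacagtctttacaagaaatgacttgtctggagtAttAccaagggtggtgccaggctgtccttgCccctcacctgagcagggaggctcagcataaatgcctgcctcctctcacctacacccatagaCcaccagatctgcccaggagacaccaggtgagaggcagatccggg
The alignment held 12 mismatches and 2 gap bases, an identity of 95.3%, against 46.8% between the windows of Saa1 and Saa4. One of the mismatches, G99A (Saa1 base, position counted from 1 at the 5′ end of the Saa1 window, Saa2 base), gives Saa2 the letters GATAA, the core that GATA factors recognise, where Saa1 has none. The base before GATA in Saa2 is G, and neither window held GATA with A or T before it and A or G after it. Coding sequences of Saa1 and Saa2 were 95.1% identical, and 13.2% of the 50-base windows of the Saa1 transcript also occurred in a Saa2 transcript. How reads that fit both genes were counted is not stated, so the split of counts between Saa1 and Saa2 is uncertain, by an amount that this share does not measure.

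The remaining genes of the Saa neighbourhood gave no call. Saa3, the form that macrophages and adipose tissue also make, had a log2 difference of -0.23 ± 0.32 (SE) with a mean normalized count of 74.1 in the authors' deposited table. Saal1, next to Saa3, had a log2 difference of 0.46 ± 0.15 (SE) and an adjusted p of 0.0747 in the authors' deposited table. Scarb1, a receptor for high-density lipoprotein that also binds serum amyloid A, had a log2 difference of -0.23 ± 0.12 (SE) by the authors' deposited table and was picked out with its value known. In the list of negative acute phase genes, Apoa1, the main protein of the lipoprotein particle that carries Saa1 and Saa2, was called lower, with a log2 difference of -0.48 ± 0.11 (SE) and an adjusted p of 0.00134 in the authors' deposited table.

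The orosomucoids are small acidic carrier proteins of plasma that bind lipophilic compounds. Orm1 (ENSMUSG00000039196, chromosome 4, 63344560 to 63348163) was the dominant form, with a mean normalized count of 8122, a log2 difference of -0.15 ± 0.11 (SE) and an adjusted p of 0.681 in the authors' deposited table. Orm2 (ENSMUSG00000061540, 63362449 to 63365878) had a mean normalized count of 162.8, a log2 difference of -0.16 ± 0.31 (SE) and an adjusted p of 0.923 in the authors' deposited table. Between them lies Orm3, whose mean normalized count was 66.9 and whose log2 difference of -1.15 ± 0.45 (SE) did not pass, at an adjusted p of 0.205 in the authors' deposited table. The estimates of Orm1 and Orm2 were nearly equal, but the interval of Orm2, -0.77 to 0.45, was far wider than that of Orm1, -0.37 to 0.07. The coding sequences of Orm1 and Orm2 were 89.9% identical, and 20.4% of the 50-base windows of each transcript occurred in the other, so that counts of the minor form can hold reads of the major one.

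Itih4, Apcs and Lcn2 complete the set. Itih4 (ENSMUSG00000021922, chromosome 14, 30886476 to 30902353), an inter-alpha-trypsin inhibitor heavy chain, had a log2 difference of -0.17 ± 0.09 (SE) and an adjusted p of 0.505 in the authors' deposited table. Its interval, -0.35 to 0.02, was the narrowest of the 10, and a change of 0.30 would have passed. Its neighbours Itih3 and Itih1, of the same family, had log2 differences of 0.02 ± 0.09 and 0.05 ± 0.09 (SE) by the authors' deposited table. Apcs (ENSMUSG00000026542, chromosome 1, 172893961 to 172895041) encodes serum amyloid P, a pentraxin that is the chief acute phase reactant of that family in mice, and had a log2 difference of -0.16 ± 0.14 (SE) and an adjusted p of 0.786 in the authors' deposited table. Another pentraxin gene, Crp, on the same chromosome 60.9 kb away, had a log2 difference of -0.18 ± 0.10 (SE) and an adjusted p of 0.481 in the authors' deposited table.

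Lcn2 (ENSMUSG00000026822, chromosome 2, 32384633 to 32388252) encodes lipocalin 2, which withholds iron from bacteria by binding their siderophores. It had a mean normalized count of 172.3, a log2 difference of -0.21 ± 0.21 (SE) and an adjusted p of 0.817 in the authors' deposited table. Neutrophils also store this protein, and their markers were sparse: of 12 markers in the table, 11 had a mean under 10 normalized counts, among them S100a8 at 4.94 and S100a9 at 7.46 in the authors' deposited table. The only tested one, Csf3r, had a log2 difference of 0.23 ± 0.37 (SE) by the authors' deposited table. The smallest change of Lcn2 that would have passed was 0.69, a fall of 38.0% or a rise of 61.2%.

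**Figure D4:**
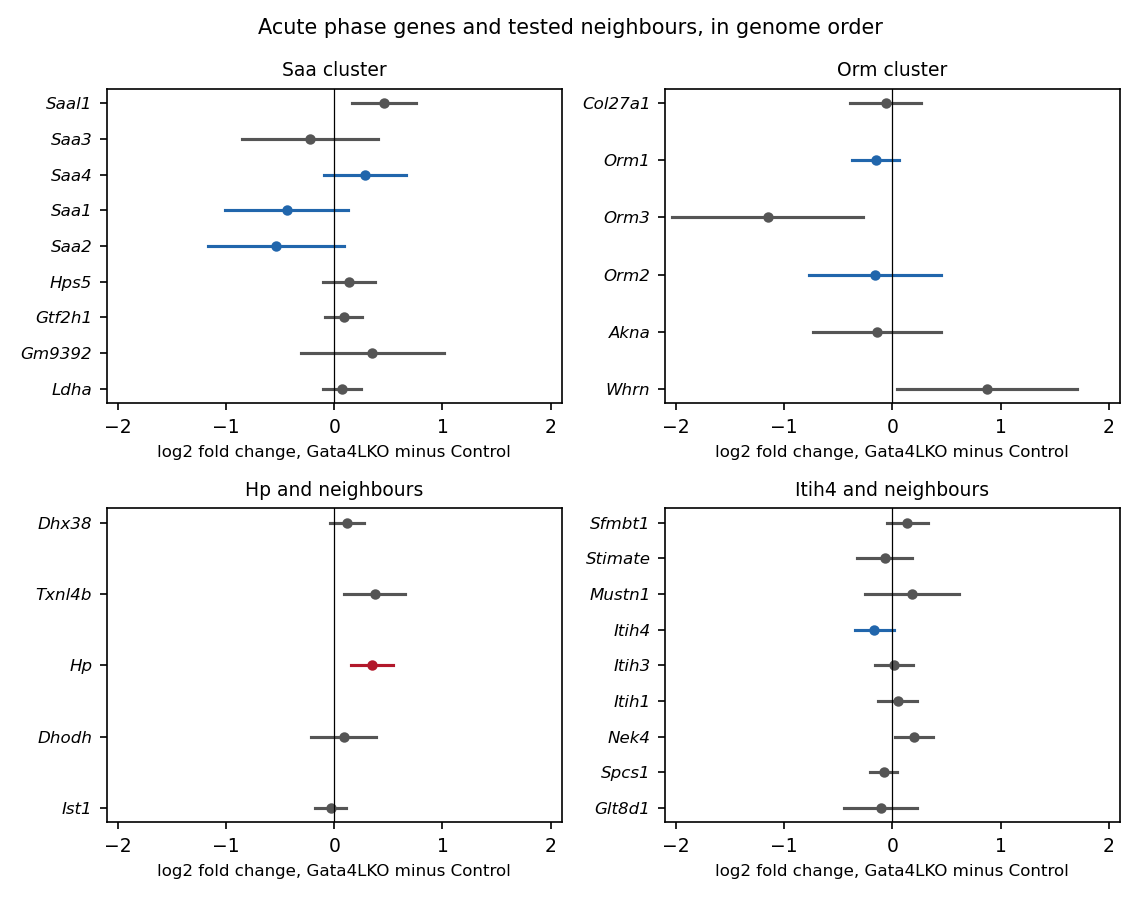
Points and lines are log2 fold changes (Gata4LKO minus Control, fasted livers) and 95% intervals of tested genes within 100 kb of Saa1, Orm1, Hp and Itih4, in genome order from top to bottom; acute phase genes described here are blue or, for Hp, red, and neighbours grey. Hp is the only gene of the 4 panels that passed the test.

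Within 100 kb of the 10 genes lay 36 other tested genes. Of these 0 passed the authors' DESeq2 Wald test, against 2.19% of all tested genes. At an unadjusted p under 0.05 the number was 6 (Swi5, Saal1, Txnl4b, Orm3, Nek4 and Whrn), against 11.4% of all tested genes. The smallest p belonged to Swi5, 96.6 kb from Lcn2, with a log2 difference of -0.17 ± 0.05 (SE). Its adjusted p was 0.0630 in the authors' deposited table. Txnl4b, a splicing-related gene that ends 1.08 kb from the end of Hp on the opposite strand, had an estimate close to that of Hp, a log2 difference of 0.37 ± 0.14 (SE), but an adjusted p of 0.184 in the authors' deposited table. Its mean normalized count was 166.3, against 47149 for Hp. On the other side, Dhodh had a log2 difference of 0.09 ± 0.15 (SE) by the authors' deposited table.

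Promoter windows were available for 8 of the 10 genes, all but Hp and Orm1. The letters GATAA on either strand occurred in 3 of the 8, those of Saa2, Orm2 and Itih4, against 25.4% of 32851 RefSeq windows of the same length. A second form, GATA with A or T before it and A or G after it, which overlaps GATAA in part, occurred in 4 of the 8 (Hpx, Orm2, Apcs and Itih4), against 29.8% of all windows. The Orm2 and Itih4 windows, at chr4:63362199-63362498 and chr14:30886226-30886525 on the plus strand (GRCm38.p6), are shown because they hold both forms, 5′ to 3′, with GATAA or its reverse complement in capitals.
Orm2: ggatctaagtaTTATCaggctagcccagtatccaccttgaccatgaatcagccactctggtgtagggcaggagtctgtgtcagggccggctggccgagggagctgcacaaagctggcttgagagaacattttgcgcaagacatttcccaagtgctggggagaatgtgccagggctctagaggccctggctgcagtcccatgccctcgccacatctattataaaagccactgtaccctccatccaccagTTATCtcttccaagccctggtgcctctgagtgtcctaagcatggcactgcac
Itih4: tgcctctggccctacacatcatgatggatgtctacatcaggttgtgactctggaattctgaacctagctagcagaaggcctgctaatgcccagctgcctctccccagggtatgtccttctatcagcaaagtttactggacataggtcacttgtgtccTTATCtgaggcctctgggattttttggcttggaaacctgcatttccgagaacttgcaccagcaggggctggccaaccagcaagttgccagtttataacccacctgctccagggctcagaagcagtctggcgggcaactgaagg
One of the Orm2 matches begins 2 bases before the start. The STAT letters TTCNNNGAA occurred in the windows of Apcs and Itih4, against 8.30% of all windows. The C/EBP letters TTNNGNAAT or TTGCNNAA, which can overlap, occurred in 6 of the 8 windows (Saa1, Saa2, Saa4, Hpx, Orm2 and Lcn2), against 19.0% of all windows. A strict form of the NF-kB letters occurred in 0 of the 8, against 5.56% of all windows. Looser NF-kB-like letters were not searched, so this 0 does not show that the windows lack NF-kB sites. All the motifs counted here are matches of letters and not measured binding, and the genes with and without GATAA letters had estimates in overlapping ranges.

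Other acute phase genes were read from a list of 38 further positive acute phase genes, of which 36 were tested. Of these 0 were called higher and 1 was called lower, and 7 had an unadjusted p under 0.05, against 11.4% of all tested genes. Estimates below 0 numbered 22, or 61.1%, against 48.1% of all tested genes, and the median log2 difference was -0.05. The called gene was C4b, a complement component with a near copy in the same locus that may share its reads, with a log2 difference of -0.36 ± 0.09 (SE) and an adjusted p of 0.00517 in the authors' deposited table. Of the other 6 genes with an unadjusted p under 0.05, the estimates of Serpina3c, Mt2, Orm3 and C9 were below 0 and those of Ambp and Serpina3n above 0. Serpina3c, a protease inhibitor gene in a cluster of similar genes, had a log2 difference of -6.23 ± 2.09 (SE) and an adjusted p of 0.0940 in the authors' deposited table. Its 95% interval was wide, -10.3 to -2.12, and its implied coefficient of variation between livers was about 205%. Mt2, a metallothionein gene, had a log2 difference of -1.28 ± 0.64 (SE) and an adjusted p of 0.424 in the authors' deposited table. C9, of the terminal complement complex, had a log2 difference of -0.28 ± 0.12 (SE) and an adjusted p of 0.243 in the authors' deposited table. Ambp, which encodes the precursor of bikunin, had a log2 difference of 0.17 ± 0.06 (SE) and an adjusted p of 0.0874, and the protease inhibitor gene Serpina3n one of 0.18 ± 0.09 (SE) and an adjusted p of 0.412, in the authors' deposited table. The fibrinogen chains had log2 differences of 0.08 ± 0.16 for Fga, 0.05 ± 0.14 for Fgb and 0.09 ± 0.16 (SE) for Fgg by the authors' deposited table. Apart from C4b, these genes were picked out with their values known. Kupffer cell and macrophage markers, from cells that release interleukins 1 and 6, had 0 of 12 past the authors' DESeq2 Wald test and 1 at an unadjusted p under 0.05. The smallest p belonged to Clec4f and Csf1r, at log2 differences of -0.27 ± 0.13 and -0.27 ± 0.14 (SE), with adjusted p of 0.432 and 0.441 in the authors' deposited table. All 12 of their estimates were below 0, against 48.1% of all tested genes, with a median of -0.27. Markers of 1 cell type are not independent observations, and their part in the estimates of the acute phase genes was not tested.

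Negative acute phase genes, whose liver RNA falls in inflammation, had 1 call in each direction among 18 tested and 6 genes with an unadjusted p under 0.05, with a median log2 difference of 0.05. Besides Apoa1, which was lower, Serpina7, the gene of thyroxine-binding globulin, was called higher, with a log2 difference of 1.46 ± 0.27 (SE) and an adjusted p of 1.80e-05 in the authors' deposited table. Albumin (Alb) had a log2 difference of 0.09 ± 0.10 (SE) by the authors' deposited table.

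**Figure D5:**
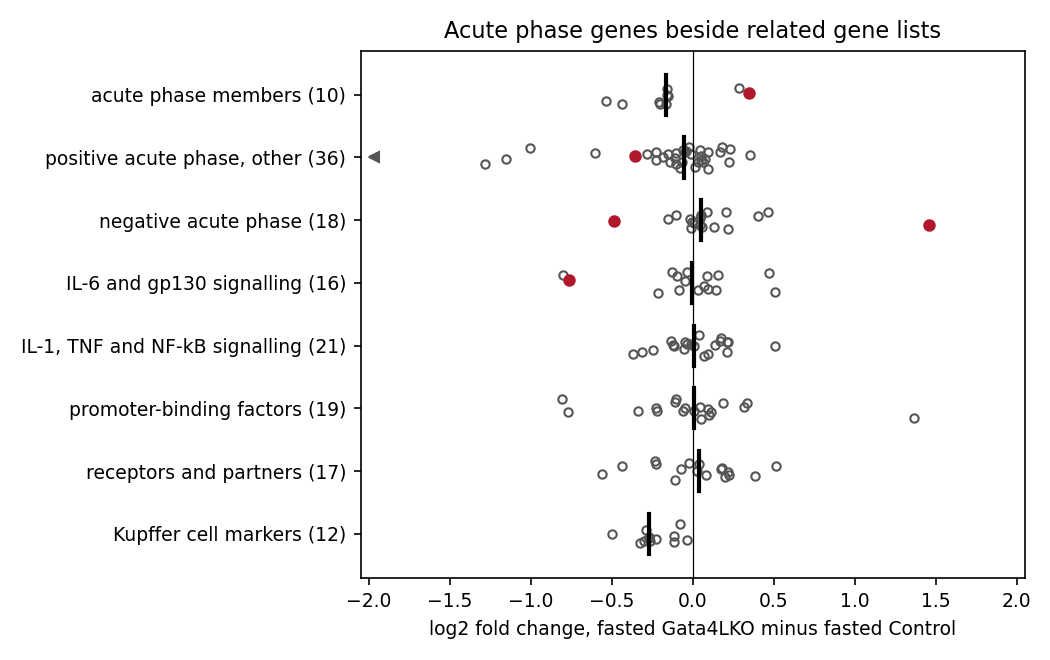
Each circle is the log2 fold change (fasted Gata4LKO minus fasted Control) of 1 tested gene from the authors' deposited table, by list, with the number tested in brackets; filled red circles passed the test and black bars are medians. A triangle marks 1 gene beyond the axis, and the medians of all lists shown lie between -0.27 and 0.05.

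Upstream signalling genes showed 1 call. Of 16 tested genes of interleukin-6 and gp130 signalling, 0 were called higher and 1 lower, and 4 had an unadjusted p under 0.05, with a median log2 difference of 0.00. The called gene was Il22ra1, a chain of the receptor for interleukin-22, a cytokine known to induce acute phase genes in mouse hepatocytes, with a log2 difference of -0.76 ± 0.23 (SE) and an adjusted p of 0.0490 in the authors' deposited table. That call was lost when p was adjusted across all genes that have one, at an adjusted p of 0.0910, and with centred and scaled Wald statistics, at 0.178 (range over 6 settings 0.0409 to 0.178). The interleukin-6 receptor gene Il6ra had a log2 difference of 0.47 ± 0.18, Stat3 at 0.09 ± 0.10, and the feedback inhibitor Socs3, itself a target of STAT3, at 0.51 ± 0.25 (SE) by the authors' deposited table, and none of these 3, picked out with their values known, passed.

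Genes of interleukin-1, tumour necrosis factor and NF-kB signalling had 0 of 21 past the authors' DESeq2 Wald test and 3 at an unadjusted p under 0.05, with a median log2 difference of 0.01. The smallest p belonged to the receptor gene Il1r1, at a log2 difference of 0.51 ± 0.23, and to its partner Il1rap, at 0.17 ± 0.08 (SE), with adjusted p of 0.335 and 0.361 in the authors' deposited table. Of 19 transcription factor genes known from acute phase promoters, 0 passed the authors' DESeq2 Wald test and 4 had an unadjusted p under 0.05, with a median of 0.01. The smallest p belonged to Foxa3, with a log2 difference of -0.34 ± 0.12 (SE) and an adjusted p of 0.124, and to Fos, with one of 1.37 ± 0.57 (SE), an adjusted p of 0.262 and a mean normalized count of only 10.9, in the authors' deposited table. The C/EBP genes Cebpa, Cebpb and Cebpd had log2 differences of -0.23 ± 0.12, -0.11 ± 0.19 and -0.22 ± 0.36 (SE) by the authors' deposited table and were picked out with their values known.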

How the data were processed

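The submitters' processing notes name mm10, DESeq2, FastQC and STAR 2.6.0c. How reads were counted, with which strand setting and which annotation, is not stated there. Per the file headers, the deposited mean is an expression signal (counts divided by size factors, averaged), and effects and their standard errors are on the log2 scale. Deposited p-values come from the Wald score, and recomputing the Benjamini-Hochberg adjustment over 13335 genes gave the deposited adjusted values. A further 11605 genes have a p without adjustment, 5 only an estimate, and 20 a mean of 0. The deposited estimates and tests were used as they stand. Depth per library is unknown, and summed over genes the means reach 1.80e+07.

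The compared groups were inferred from genes with 1 read in 1 of the 15 libraries. Their means give size factors between 0.912 and 1.11, and their estimates fall into 4 sets of libraries, sized as the 4 groups. Penalised negative binomial fits to those reads were made for 48 readings of the design. Of these, 2 matched the deposited estimates within 1e-06 on the log2 scale, and the closest other reading was 2.74e-05 away. Both carry a genotype by feeding interaction, with fasted Control as the baseline. One is fasted Gata4LKO minus fasted Control, the other refed Control minus fasted Control, and such reads cannot separate them. The choice of the first rests on the name of the deposited result, which refers to genotype. These steps were tested on data simulated with the same fits, which checks the procedure but not the assumed form of the model.

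Intervals are the estimate ± 1.96 SE, and the smallest passing change is 3.26 SE. Coefficients of variation were derived from the SE for 4 livers a group and the mean over all 15 libraries. Transcript lengths, positions and 50-base windows came from GENCODE M21 (GRCm38), and promoters from RefSeq (GRCm38.p6). Python 3.11.15, pandas 2.3.3, numpy 2.4.6 and scipy 1.17.1 were used. Whether animals of a group shared a cage or litter is not stated, so p-values measure the spread between these samples. The members and the 14 lists were chosen with earlier results of these data known. Named genes are the members, Gata4, some tested neighbours of the members within 100 kb, and Alb. Of each list, the called genes are named or else up to 2 of smallest p. The neighbours to name were picked out with their values known. Any other gene was picked out with its value known. Alternatives changed the adjustment, the threshold, the scaling of the Wald statistics and the centring. A planned comparison of proteins was made on coding sequences instead.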

Additional observations from a re-analysis of the deposited data

How the results depend on the processing

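Among the 10 acute phase genes, the count of 1 call held when p was adjusted across all genes that have one, across those with a mean normalized count of 10 or more or 100 or more, and at a threshold of 0.1. It was 0 with centred and scaled Wald statistics, where 157 of all tested genes were called, against 292 as deposited, and 80.3% of calls were lower, against 73.3%. The median log2 fold change of the 10 genes, -0.16 as deposited, was -0.17 and -0.18 under the 2 centrings and -0.16 without Saa1, Saa2, Orm1 and Orm2, and the precision-weighted mean was -0.06. The centrings subtracted 0.00737 and 0.019, far less than the smallest absolute estimate of a member, 0.15 for Orm1. No member could therefore change sign under them. Over all fixed lists 5 genes were called as deposited (Serpina7, Apoa1, C4b, Il22ra1 and Cfd). The number was 3 when p was adjusted across all genes that have one, 9 at a threshold of 0.1, and 3 with centred and scaled statistics. No paired analysis was possible because the authors' table lists estimates only. Leaving out livers, other filters and other normalizations need values per liver and were not run.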

Other observations

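Some inducible genes of the fixed lists did not pass the test, and the following were picked out with their values known. Mt1, a metallothionein gene induced by glucocorticoids, zinc and interleukin-6, had a log2 difference of -1.01 ± 0.56 (SE) and an adjusted p of 0.504 in the authors' deposited table. The STAT5 target Cish had a log2 difference of -0.80 ± 0.63 (SE) by the authors' deposited table. Hamp, which encodes the iron hormone hepcidin and which interleukin-6 induces, had a log2 difference of 0.35 ± 0.40 (SE) by the authors' deposited table.

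Among the adipocyte markers, Cfd was called higher, with a log2 difference of 3.20 ± 0.96 (SE), an adjusted p of 0.0421 and a mean normalized count of 9.36 in the authors' deposited table. That call was lost in 4 of 6 settings. The adjusted p was 0.0784 across all genes that have a p and 0.194 with centred and scaled Wald statistics, and Cfd was not among the genes adjusted with a mean of at least 10 or at least 100. Of the 8 markers, 5 had a mean under 10 normalized counts, among them Adipoq at 2.43 and Plin1 at 0.588 in the authors' deposited table. Cholangiocyte, endothelial, stellate cell and lymphocyte markers had 0 calls among 4, 9, 9 and 3 tested by the authors' DESeq2 Wald test, and 0, 3, 1 and 2 at an unadjusted p under 0.05. Of 11 hepatocyte markers, Apoa1 alone was called, and their median log2 fold change was 0.06.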
